A study of Mus musculus with 6 samples.

Results

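The genes described here carry the mouse symbol Zfp followed by a digit, a name given to zinc finger proteins of many kinds. Of 21240 genes in the count table, 373 had such a symbol, and 217 of these reached at least 5 CPM, the usual scaling of a gene's count to its library's total, in all 6 libraries. The members were therefore chosen by their lowest measured level over the libraries, a choice that removes genes that fell far in any group, and the levels themselves are given below as a description. NMuMG, a mouse mammary epithelial cell line, was kept without serum and insulin for 6 h and then given vehicle for 2 h, TGFβ1 at 5 ng/ml for 2 h, or TGFβ1 at 5 ng/ml for 12 h. Each of these 3 groups had 2 biological replicates, read by stranded total RNA-seq. No vehicle library was taken at 12 h. When 12 h is compared with vehicle or 2 h, the effect of TGFβ cannot be told apart from that of longer time without serum. In bulk RNA, fewer cells of a kind and less RNA per cell cannot be told apart either.

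Most Zfp proteins bind DNA through tandem C2H2 fingers, short loops in which a pair of cysteines and a pair of histidines hold a zinc ion. Many also carry a KRAB box, which recruits the corepressor Trim28 and, through it, a histone methyltransferase and heterochromatin proteins that silence the bound site, often a transposable element or an imprinted region. A few Zfp proteins are not DNA-binding factors at all: the tristetraprolin family (Zfp36, Zfp36l1 and Zfp36l2) uses CCCH fingers to bind AU-rich elements in mRNA and to bring in the CCR4-NOT deadenylase.

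The fingers of both kinds are shown first, because the members that changed most belong to both. The stretches below are coding sequence of the mm9 build, from the first to the last zinc-binding residue of the first finger found in each protein, with the codons of the zinc-binding cysteines and histidines in capitals. Zfp54, Zfp51 and Zfp53 are KRAB members that lie next to each other on chromosome 17 and that all fell at 2 h, and the other 3 are the tristetraprolin family.
Zfp54: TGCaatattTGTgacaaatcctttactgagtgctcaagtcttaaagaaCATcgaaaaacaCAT
Zfp51: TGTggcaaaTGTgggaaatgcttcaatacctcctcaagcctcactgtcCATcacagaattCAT
Zfp53: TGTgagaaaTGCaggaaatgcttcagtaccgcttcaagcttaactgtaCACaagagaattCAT
Zfp36: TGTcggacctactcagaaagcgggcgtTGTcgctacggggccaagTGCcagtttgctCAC
Zfp36l1: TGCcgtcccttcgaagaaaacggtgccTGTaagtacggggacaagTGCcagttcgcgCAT
Zfp36l2: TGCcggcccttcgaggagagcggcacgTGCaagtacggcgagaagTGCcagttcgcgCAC
The C2H2 stretches are 63 bases long and the CCCH stretches 60. Over their whole coding sequences, Zfp51 and Zfp53 were identical at 86.2% of 1923 aligned bases, Zfp54 and Zfp51 at 82.9% of 1833, and Zfp36l1 and Zfp36l2 at 75.6% of 994. Zfp54 lies at chr17:21560191-21572604, Zfp51 at chr17:21587316-21602555 and Zfp53 at chr17:21628220-21646629, all on the plus strand of mm9, and Zfp36l2 lies on the minus strand at chr17:84583271-84587287.

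Total counts per library ranged from 14705886 to 23786993, and the members had between 82 and 11525 counts in a library. TMM scaling factors lay between 0.961 and 1.07, and the levels below are TMM-scaled CPM. The 11080 genes that reached 2 CPM in 2 or more libraries entered edgeR's quasi-likelihood test, fitted to the 3 groups together, and a gene was called changed at a Benjamini-Hochberg adjusted p under 0.05. The epithelial markers Cdh1, Krt8, Krt18 and Krt19 were present, whereas Epcam, Cldn3, Cldn7 and Esrp1 were at or near 0 in every group. The keratins moved with treatment: Krt8 rose at 2 h (log2 fold change 0.68) and at 12 h (1.63), Krt18 rose at 12 h (1.53) and Krt19 fell at 12 h (-1.95), while Cdh1 was not called at either time, and their part in the changes of the Zfp genes was not tested. Of 8 leukocyte and endothelial markers found in the table, Cd68 averaged 5.07 to 6.25 CPM and Cdh5 reached 1.77 CPM at 12 h, and the others stayed near 0.

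The Zfp members as a class leaned down after 2 h of TGFβ and had moved back up by 12 h. At 2 h, 33 of 217 members fell (15.2%) and 13 rose (5.99%). Among all genes tested the balance was the other way, with 5.25% lower and 9.91% higher, and among the 9110 genes that met the same minimum of 5 CPM it was 4.77% lower and 10.5% higher. The median log2 fold change (log2FC) of the members was -0.20, with quartiles of -0.47 and 0.10, and the median of all genes tested was -0.01. Both 2 h libraries lay below both vehicle libraries for 104 members and above them for 43, against 27.5% and 28.4% of all genes tested. A total of 149 members had a negative log2FC and 68 a positive one.

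At 12 h against vehicle the balance turned, with 47 members higher (21.7%) and 17 lower (7.83%). The share that rose was close to that of all genes tested (21.8%) and of genes at 5 CPM or more (23%), and the share that fell was under theirs (21.5% and 17.7%). This split depended on scaling: with total counts in place of TMM factors, 26 members were higher and 27 lower. With total counts the median of all genes was itself shifted to -0.12 at both times, and that of the members lay at -0.31 at 2 h and -0.02 at 12 h, with 46 members lower and 9 higher at 2 h. With TMM factors the members' median at 12 h was 0.10.

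Directly between the treated groups, 49 members were higher at 12 h than at 2 h (22.6%) and 4 were lower (1.84%). Of all genes tested, 15.2% were higher and 18.9% lower, and of genes at 5 CPM or more 15.3% and 15.6%. The 3 comparisons share libraries with each other, so their counts are set side by side and are not independent of each other. In all, 102 members (47%) were called in at least 1 of the 3 comparisons, beside 52% of all genes tested.

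The number of calls changed with the libraries in the fit. The share of all genes called was not computed for these fits, so whether members lost more calls than other genes was not tested. The members' median log2FC at 2 h was -0.16 without vehicle replicate 1 and -0.22 without vehicle replicate 2. For all genes tested it was -0.01 and 0.01. Without vehicle replicate 1, 5 members fell and 2 rose at 2 h, and without vehicle replicate 2 the counts were 7 and 3. Fitting the 2 h and vehicle libraries alone gave 10 lower and 6 higher, all among those called with the 3 groups together. At 12 h the number higher was 25 without vehicle replicate 1, 17 without vehicle replicate 2, 19 without 12 h replicate 1 and 16 without 12 h replicate 2, and without the latter 2 in turn the number higher at 12 h than at 2 h was 9 and 11. The 5 members that fell at 2 h in every fit with 1 library left out were Zfp189, Zfp280b, Zfp367, Zfp53 and Zfp563, and the 2 that rose were Zfp36l2 and Zfp668. These names were picked after their values were seen.

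**Figure D1:**
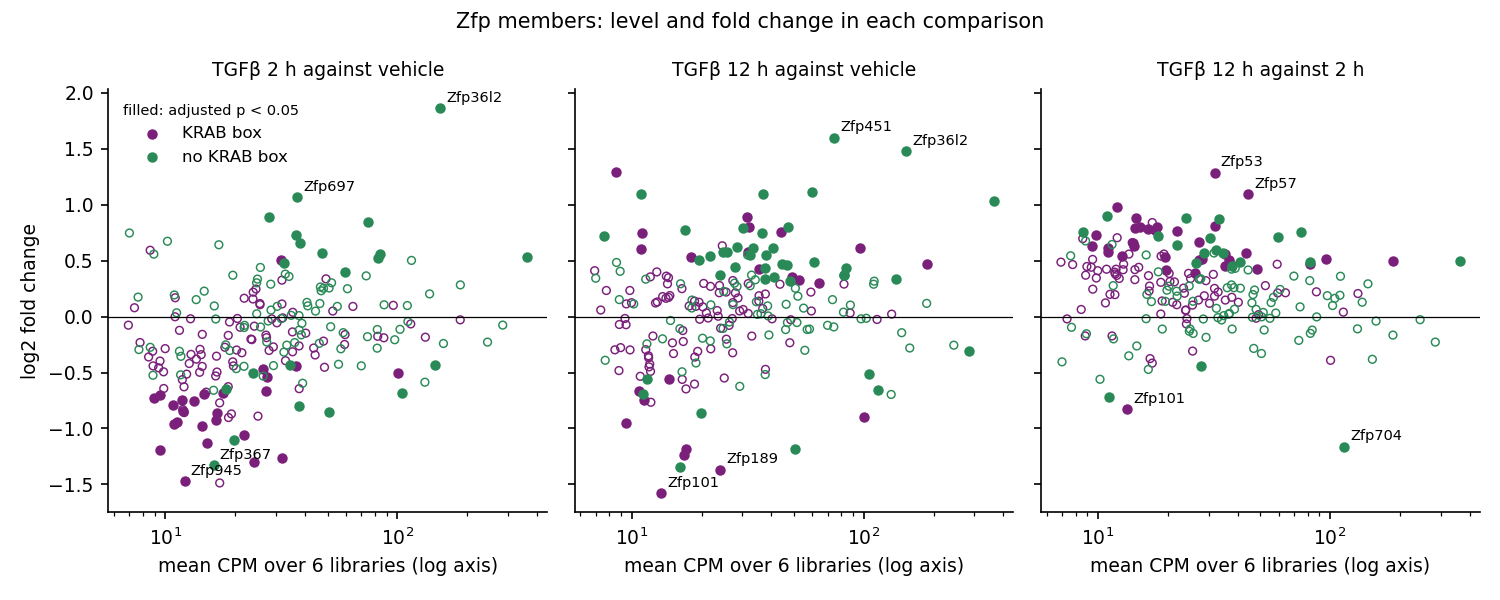
Each point is 1 of the 216 Zfp members with a coding sequence, with its mean TMM-scaled CPM over the 6 libraries on a log axis and its log2 fold change on the linear vertical axis, in the 3 comparisons. Filled points passed the adjusted p of 0.05, purple points have a KRAB box and green points have none; at 2 h the filled purple points lie below 0 with the exception of Zfp777, and at 12 h against 2 h nearly all filled points lie above 0.

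The downward lean at 2 h lay mostly with the KRAB members. A profile of the KRAB box found it in 113 of the 216 members with a coding sequence. In 92 others C2H2 fingers and no KRAB box were found, and in 11 neither was found. Fingers were searched by a fixed spacing pattern, so C2H2 fingers of other spacing were not counted. The profile was built from boxes found in the reference itself and not from a curated domain collection, so members at its edge may be misclassed. Of the 113 KRAB members, 24 fell (21.2%) and 1 rose (0.885%, Zfp777) at 2 h, with a median log2FC of -0.34. Of the 92 C2H2 members without a KRAB box, 9 fell (9.78%) and 11 rose (12%), with a median of -0.03. Against these counts stand the 5.25% lower and 9.91% higher among all genes. A test of the difference between the classes was not made.

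The median of the KRAB members was alike in both libraries of each group. Relative to the vehicle mean, their median log2 level was -0.36 in the 2 h replicate 1 library and -0.36 in replicate 2, and 0.06 and 0.02 in the 12 h libraries. The C2H2 members without a KRAB box had medians of 0.02 and 0.03 in the 2 h libraries and 0.19 and 0.15 in the 12 h libraries. At 12 h against 2 h, 32 KRAB members were higher (28.3%) and 1 lower, beside 15.2% and 18.9% of all genes. At 12 h against vehicle 14 rose (12.4%) and 9 fell (7.96%), both shares under the 21.8% and 21.5% of all genes. Without vehicle replicate 1 or without vehicle replicate 2, 3 KRAB members were called lower at 2 h in each case, and 4 were called higher at 12 h than at 2 h without 12 h replicate 1 and 6 without 12 h replicate 2.

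**Figure D2:**
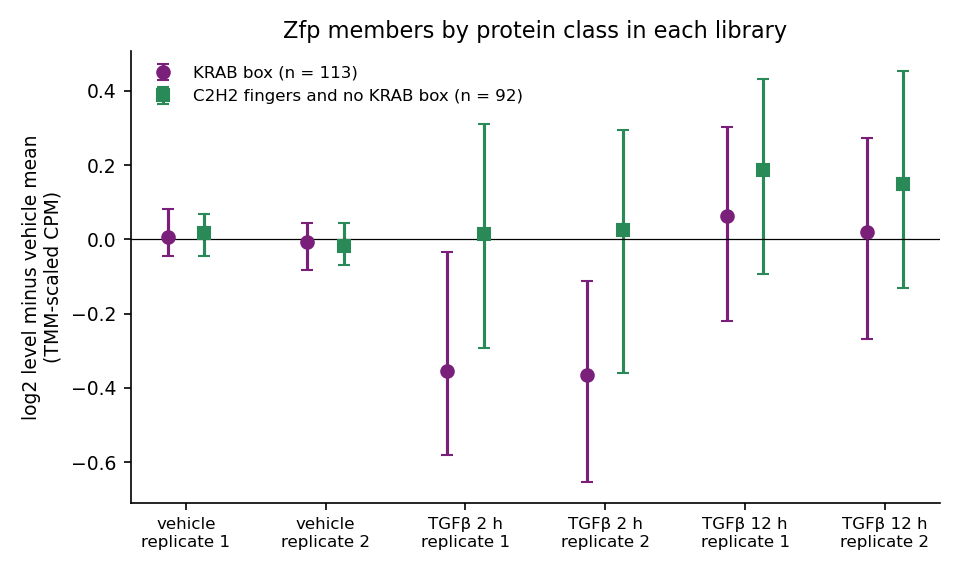
Points are the medians, over members of a protein class, of the log2 TMM-scaled CPM in each library minus the mean log2 level of the vehicle libraries, and bars span the quartiles over members. KRAB members sit at about -0.36 in both 2 h libraries and near 0 in the vehicle and 12 h libraries, whereas members with C2H2 fingers and no KRAB box sit near 0 at 2 h and above it at 12 h.

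KRAB members were also lower in level, with a median of 22.2 and 20.7 CPM in the vehicle libraries against 35.1 and 35.4 CPM for the others with C2H2 fingers. Among members at or above the median vehicle level of 25.4 CPM, 9 of 44 KRAB members fell (20.5%) and none rose, with a median log2FC of -0.23, and 7 of 65 members without a KRAB box fell (10.8%) and 8 rose (12.3%), with a median of -0.06. Among members under that level, 15 of 69 KRAB members fell (21.7%) and 1 rose (1.45%), with a median of -0.41, and 2 of 38 without a KRAB box fell (5.26%) and 4 rose (10.5%), with a median of 0.08. Of all genes tested, 5.25% fell and 9.91% rose. The quartiles of the classes overlapped in the upper range (-0.48 to -0.05 for KRAB members and -0.26 to 0.25 for the others), and the part of level in the difference was not tested. KRAB members held a median of 12 C2H2 fingers and the others with fingers a median of 8. By finger number, the median log2FC at 2 h was -0.10 for members with 1 to 5 fingers, -0.14 with 6 to 10, -0.34 with 11 to 15 and -0.26 with 16 or more, with no steady trend.

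None of 11 genes of the Trim28 corepressor complex and its partners, through which KRAB boxes act, passed edgeR's test at 2 h. Of all genes tested, 9.91% rose and 5.25% fell at that time. Among the 11, 8 had a negative log2FC (median -0.27), beside 5661 of all 11080 genes. At 12 h against vehicle the median was 0.03, and 2 genes were higher (18.2%, beside 21.8% of all genes). Trim28 itself averaged 476 CPM in vehicle, 571 at 2 h and 664 at 12 h, and was called higher at 12 h (log2FC 0.48, adjusted p = 0.018 by edgeR's quasi-likelihood test). Setdb1, the H3K9 methyltransferase that Trim28 brings in, averaged 81.8, 65.7 and 86.1 CPM and passed the test only between 12 h and 2 h (log2FC 0.39, adjusted p = 0.028).

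Among the members that fell at 2 h, some were near the vehicle level at 12 h and others stayed low. Zfp53, a KRAB protein with 15 C2H2 fingers, had 36.1 and 42.1 CPM in vehicle, 16.2 and 16.4 at 2 h, and 39.2 and 40.6 at 12 h. The 2 h libraries thus lay below all the others, and the vehicle and 12 h libraries overlapped. The log2FC was -1.26 ± 0.13 (SE) at 2 h (adjusted p = 0.0017), 0.03 ± 0.12 at 12 h (adjusted p = 0.87), and 1.29 ± 0.13 between 12 h and 2 h (adjusted p = 0.00082).

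Zfp189, also a KRAB member, had 40.5 and 40.0 CPM in vehicle, 16.99 and 15.63 at 2 h, and 13.5 and 17.8 at 12 h. Its treated libraries all lay under both vehicle libraries, with log2FC of -1.30 ± 0.16 at 2 h (adjusted p = 0.0037) and -1.37 ± 0.16 at 12 h (adjusted p = 0.00091). Zfp367, with 2 C2H2 fingers and no KRAB box, followed the same course, from 26.4 and 27.6 CPM in vehicle to 10.97 and 10.54 at 2 h and 10.4 and 10.8 at 12 h. The replicates of Zfp367 were close, and its log2FC was -1.33 ± 0.14 at 2 h (adjusted p = 0.0018) and -1.35 ± 0.14 at 12 h (adjusted p = 0.00045).

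Zfp101, a KRAB member, fell in steps, from 18.1 and 23.5 CPM in vehicle to 11.8 and 12.8 at 2 h and 7.32 and 6.57 at 12 h, with no overlap between the groups. Its log2FC was -0.75 ± 0.18 at 2 h (adjusted p = 0.037) and -1.58 ± 0.19 at 12 h (adjusted p = 0.00086). The 2 h call was lost when the 2 h and vehicle libraries were fitted alone. Zfp945 had the largest fall among the 2 h calls, from 19.9 and 17.4 CPM to 8.29 and 5.14, with 13.2 and 8.72 at 12 h. Its log2FC was -1.47 ± 0.29 at 2 h (adjusted p = 0.021), and the 12 h value of -0.77 ± 0.29 did not pass the test (adjusted p = 0.07). Zfp825, with log2FC of -1.20 at 2 h and -0.95 at 12 h, was called lower at both times.

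Further KRAB members low at 12 h were Zfp938 (log2FC -1.23 ± 0.21, adjusted p = 0.0039) and Zfp984 (-1.19 ± 0.24, adjusted p = 0.0077). Zfp938 had 27.3 and 23.6 CPM in vehicle and 12.0 and 9.60 at 12 h. For Zfp984, 53% of the 50-base windows of its coding sequence also occur in a transcript of another gene, and since the authors kept uniquely mapped reads, its counts come from the rest of the gene and are uncertain.

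Zfp57, a KRAB protein that keeps methylation at imprinted regions, was at 39.6 and 36.7 CPM in vehicle, 27.1 and 33.1 at 2 h, and 62.4 and 66.3 at 12 h. Its 12 h libraries were the highest and its 2 h libraries the lowest. It rose at 12 h against vehicle (log2FC 0.75 ± 0.13, adjusted p = 0.0041) and against 2 h (1.10 ± 0.13, adjusted p = 0.0016), and its 2 h value of -0.34 ± 0.13 did not pass the test (adjusted p = 0.14). The other imprint factor of this kind, Zfp445, stayed between 111 and 142 CPM in all libraries and was called in no comparison, and Zfp809, which silences endogenous retroviruses, had a 2 h log2FC of -0.68 ± 0.23 (adjusted p = 0.1). These 3 are the members in the list of transposon and imprint silencers, and all 3 had both 2 h libraries below both vehicle libraries, as 27.5% of all genes did, with a median log2FC of -0.34. None of the 3 passed edgeR's test at 2 h, where 5.25% of all genes fell.

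Zfp605, a KRAB member, was also higher at 12 h than at 2 h, with 11.3 and 13.4 CPM in vehicle, 6.32 and 9.63 at 2 h, and 15.3 and 16.3 at 12 h (log2FC 0.98 ± 0.23 between 12 h and 2 h, adjusted p = 0.018). Neither of its comparisons with vehicle passed the test. Zfp746, a KRAB member known as a repressor of the gene for the coactivator PGC-1α, was flat at 2 h (25.7 and 25.8 CPM in vehicle, 24.9 and 26.2 at 2 h) and reached 44.1 and 45.4 CPM at 12 h (log2FC 0.80 ± 0.11, adjusted p = 0.0015). Zfp647, at 5.18 and 5.22 CPM in vehicle and 11.3 and 14.2 at 12 h, was the KRAB member with the largest rise (log2FC 1.29 ± 0.31, adjusted p = 0.015).

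The tristetraprolin family split. Zfp36l2, which destabilizes AU-rich mRNAs, had 58.5 and 64.4 CPM in vehicle, 242 and 205 at 2 h, and 190 and 153 at 12 h. Every treated library lay above both vehicle libraries, and the log2FC of 1.86 ± 0.15 at 2 h (adjusted p = 0.0008) was the largest rise of any member at that time. It was 1.48 ± 0.15 at 12 h (adjusted p = 0.00045).

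Zfp36, or tristetraprolin, had 12.2 and 13.1 CPM in vehicle, 14.2 and 11.7 at 2 h, and 7.23 and 8.52 at 12 h. Its 12 h libraries lay below all the others, with a log2FC of -0.69 ± 0.18 against vehicle (adjusted p = 0.021) and -0.72 ± 0.18 against 2 h (adjusted p = 0.022), and its 2 h value was 0.03 ± 0.18 (adjusted p = 0.92). Zfp36l1 had 32.9 and 34.4 CPM in vehicle, 32.5 and 35.2 at 2 h, and 50.2 and 40.6 at 12 h (log2FC 0.43 ± 0.14 at 12 h, adjusted p = 0.041), a call that was lost with total counts. Zfp36l3 had 0 counts in all libraries. Per kilobase of exon, the mean level over the 6 libraries was 43.1 CPM for Zfp36l2, 12.6 for Zfp36l1 and 6.24 for Zfp36. Of 12 measured genes of the CCR4-NOT deadenylase, which these proteins recruit, none was called at 2 h. At that time 9.91% of all genes rose and 5.25% fell. At 12 h Tnks1bp1 was higher and Cnot1 lower (8.33% each way, beside 21.8% and 21.5% of all genes).

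Zfp451, a SUMO ligase and a corepressor of SMAD-driven transcription, rose in steps. It had 37.2 and 39.7 CPM in vehicle, 75.2 and 62.8 at 2 h, and 117 and 116 at 12 h, with no overlap between any groups. Its log2FC was 0.84 ± 0.12 at 2 h (adjusted p = 0.0058) and 1.60 ± 0.12 at 12 h (adjusted p = 0.00016), and 0.76 ± 0.12 between 12 h and 2 h (adjusted p = 0.004).

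Zfp703, a NET family corepressor, was under the minimum level in vehicle and so is not a member. It had 2.06 and 3.63 CPM in vehicle, 9.10 and 16.7 at 2 h, and 9.01 and 6.83 at 12 h, and rose by a log2FC of 2.18 ± 0.40 at 2 h (adjusted p = 0.015). Zfp423, Zfp503 and Zfp521, other genes in the list of SMAD and BMP partners, were not tested, with group means no higher than 0.0612 CPM.

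Several other members without a KRAB box rose. Zfp697 had 23.3 and 18.9 CPM in vehicle, 51.8 and 36.8 at 2 h, and 50.1 and 40.3 at 12 h (log2FC 1.07 ± 0.21 at 2 h, adjusted p = 0.02; 1.10 ± 0.21 at 12 h, adjusted p = 0.0063), and its 2 h call was lost when only the 2 groups were fitted. Zfp668 had 20.5 and 19.3 CPM in vehicle, 38.2 and 35.5 at 2 h, and 26.8 and 27.3 at 12 h. It was higher at 2 h than at either other time, with log2FC of 0.89 ± 0.12 at 2 h (adjusted p = 0.0044) and -0.45 ± 0.12 from 2 h to 12 h (adjusted p = 0.025). Zfp827, which brings the NuRD complex to telomeres, rose to a like extent at both times, with log2FC of 0.73 ± 0.11 at 2 h (adjusted p = 0.0066) and 0.75 ± 0.11 at 12 h (adjusted p = 0.0019).

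Zfp146, a protein made almost wholly of fingers, had 40.4 and 39.5 CPM in vehicle, 52.0 and 53.2 at 2 h, and 84.5 and 88.3 at 12 h. The 3 groups did not overlap, and the log2FC at 12 h was 1.11 ± 0.10 (adjusted p = 0.00025). Zfp639 dipped and rose, with 23.5 and 24.4 CPM in vehicle, 17.6 and 16.1 at 2 h, and 32.1 and 30.0 at 12 h (log2FC 0.88 ± 0.12 between 12 h and 2 h, adjusted p = 0.0028). Its calls against vehicle, -0.51 at 2 h and 0.37 at 12 h, were each lost in some of the other fits. Zfp704, with 117 and 110 CPM in vehicle, had 177 and 144 at 2 h and 84.2 and 59.0 at 12 h. It was lower at 12 h than in vehicle (log2FC -0.66 ± 0.19, adjusted p = 0.029) and than at 2 h (-1.16 ± 0.19, adjusted p = 0.0048), and its 2 h value of 0.50 ± 0.19 did not pass the test (adjusted p = 0.13).

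**Figure D3:**
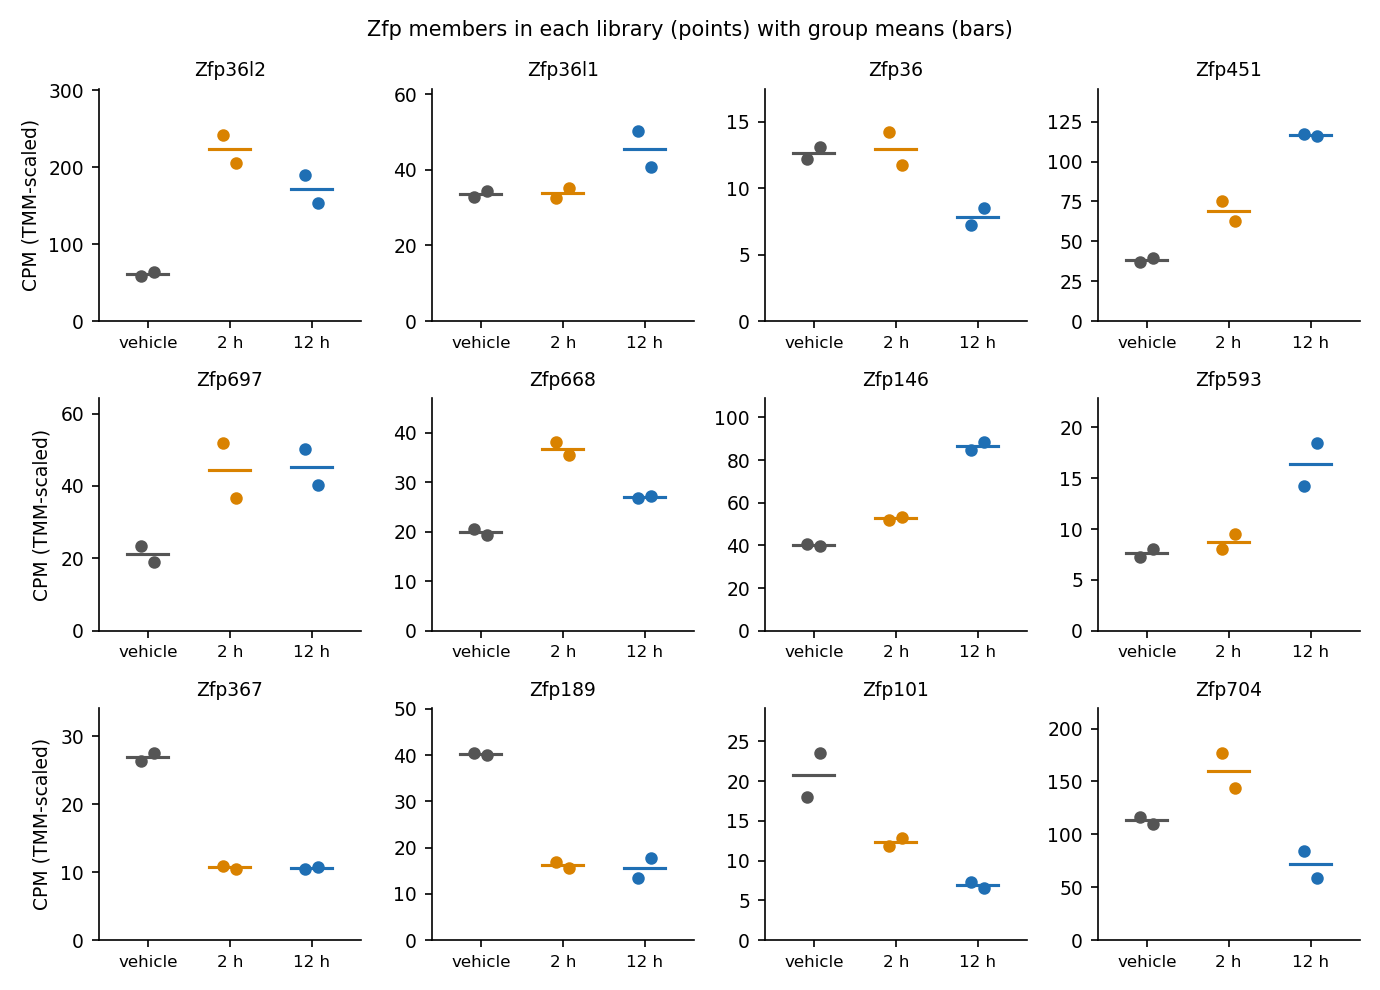
Points are the TMM-scaled CPM of 12 members in each library, on linear axes that start at 0, and bars are the means of the 2 replicates in vehicle and after 2 h and 12 h of TGFβ. Zfp36l2 is highest at 2 h and Zfp451 and Zfp146 at 12 h, Zfp367 and Zfp189 are low at both times, and Zfp36 is low at 12 h.

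Of 9 members that act on RNA or on the ribosome, 2 rose (22.2%) and none fell at 2 h, where 9.91% of all genes rose. At 12 h against vehicle 4 rose (44.4%) and 1 fell (11.1%), beside 21.8% and 21.5% of all genes. Zfp106, an RNA-binding protein, had the highest count of any member in a library (11525, in 12 h replicate 1), though not in vehicle. It went from 234 and 249 CPM in vehicle to 341 and 361 at 2 h and 502 and 489 at 12 h, with a log2FC of 1.03 ± 0.10 at 12 h (adjusted p = 0.00035). Zfp593, a factor of the large ribosomal subunit's assembly, had 7.23 and 8.08 CPM in vehicle, 7.99 and 9.53 at 2 h, and 14.2 and 18.5 at 12 h (log2FC 1.09 ± 0.20 at 12 h, adjusted p = 0.0052). Zfp830, a factor tied to splicing, rose by 0.63 ± 0.13 at 12 h (adjusted p = 0.0094).

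Zfp598, the ubiquitin ligase that marks collided ribosomes, had 63.3 and 68.9 CPM in vehicle, 89.1 and 101 at 2 h, and 81.3 and 90.1 at 12 h, and both of its calls against vehicle (log2FC 0.52 and 0.37) were lost with total counts. Zfp207, which binds the mitotic checkpoint protein Bub3, was lower at 12 h (log2FC -0.30 ± 0.10, adjusted p = 0.049), a call lost without a filter on low counts. Zfp622, which acts late in the maturation of the large subunit, stayed between 78.9 and 95.3 CPM and was called in no comparison.

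Of 10 members listed for chromatin complexes and genome organisation, Zfp827 rose and Zfp644 fell at 2 h (10% each way, beside 9.91% and 5.25% of all genes). At 12 h against vehicle 2 rose (Zfp827 and Zfp217) and none fell, or 20% rising beside 21.8%. Zfp644, which works with the G9a and GLP methyltransferases, had a 2 h log2FC of -0.44 ± 0.11 (adjusted p = 0.048), a call lost when only the 2 groups were fitted. Zfp217, a corepressor with LSD1 and CtBP, had a 12 h log2FC of 0.49 ± 0.11 (adjusted p = 0.0096). Zfp143, which binds at promoters and chromatin loops, was at 38.6 to 39.9 CPM in vehicle, 32.4 and 42.9 at 2 h, and 38.6 to 40.2 at 12 h. It passed no test.

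Of 6 members with another known role, Zfp318 alone was called, 1 gene lower at 2 h (16.7%, beside 5.25% of all genes). The same gene was higher at 12 h than at 2 h (16.7%, beside 15.2% of all genes). Zfp318, known for its part in switching IgM to IgD transcripts in B cells, had a log2FC of -0.43 ± 0.11 at 2 h (adjusted p = 0.039) and rose by 0.56 ± 0.10 from 2 h to 12 h (adjusted p = 0.0077), and its 2 h call was lost when only the 2 groups were fitted. Zfp91 differed between replicates more than most, at 154 and 76.0 CPM in the 2 h libraries, so its 2 h log2FC of -0.59 carried an SE of 0.32.

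On the scale of level per kilobase of exon, Zfp740 (50.7 mean CPM per kb), Zfp317 (44.8) and Zfp445 (44.6) were the highest members and Zfp652 (0.661), Zfp945 (1.19) and Zfp619 (1.30) the lowest. The members just inside the minimum of 5 CPM, before TMM scaling, were Zfp764, at 5.01 CPM in its lowest library, and Zfp945 at 5.12. Just outside were Zfp39 and Zfp759, each at 4.96. Of the 156 Zfp symbols below the minimum, 74 were too low to be tested and 82 were tested. Since a gene could miss the minimum through low 2 h libraries alone, the changes of these 82 are partly set by the choice and enter no count of members above.

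Zfp genes, and KRAB genes above all, lie in clusters of neighbouring copies. The 216 members with a position in mm9 were spread over 20 chromosomes, with 51 on chromosome 7, 29 on chromosome 17 and 18 on chromosome 13. In the order of all counted genes, 77 members stood directly beside another member, in 28 runs of which the longest held 7. In 16 of the 28 runs every member was on average below vehicle at 2 h, and in 2 every member was above. Of all 217 members, 149 had a negative log2FC at 2 h and 68 a positive one. How many such runs this lean alone would give was not tested.

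Chromosome 17 leaned down at 2 h. Of its 29 members, 11 fell (37.9%) and 2 rose (6.90%) at 2 h, with a median log2FC of -0.54, whereas of all 553 genes tested on this chromosome 30 fell (5.42%) and 42 rose (7.59%), with a median of 0.01. On chromosome 7, 4 of 51 members fell (7.84%) and 3 rose (5.88%), beside 4.32% and 12% of all genes tested there. Away from chromosome 17 the KRAB members still leaned down, with 14 of 89 lower (15.7%), 1 higher (1.12%) and a median of -0.27, beside 5.25% lower and 9.91% higher among all genes.

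The run Zfp54, Zfp51 and Zfp53 fell as a whole at 2 h. Zfp54 had 13.6 and 18.3 CPM in vehicle, 7.64 and 8.97 at 2 h, and 10.6 and 8.47 at 12 h, and Zfp51 had 29.0 and 30.0, 21.1 and 19.4, and 32.5 and 31.8. Their log2FC at 2 h were -0.94 ± 0.22 (adjusted p = 0.034) and -0.54 ± 0.12 (adjusted p = 0.026), beside the -1.26 of Zfp53, and both calls were lost when only the 2 groups were fitted. At 12 h, the log2FC of Zfp51 and Zfp53 were 0.13 and 0.03, neither past the test, and Zfp54 was still lower (-0.74 ± 0.22, adjusted p = 0.032). Of the 50-base windows of coding sequence, 0.823%, 3.13% and 0.785% in Zfp54, Zfp51 and Zfp53 also occur in a transcript of another gene, and windows in the untranslated regions were not compared.

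In 3 further runs of chromosome 17, the 2 h log2FC was -0.85, -0.83 and -0.50 for Zfp948, Zfp983 and Zfp760, -1.49, -0.89 and -0.87 for Zfp820, Zfp942 and Zfp943, and 0.00, -0.75 and -0.96 for Zfp472, Zfp952 and Zfp763. Of these 9, Zfp948, Zfp952 and Zfp763 passed the test, and none of the 3 did when only the 2 groups were fitted. At 2 h, 5.25% of all genes tested and 5.42% of those on chromosome 17 fell. Zfp820 had the most negative log2FC of any member, with 12.5 and 5.90 CPM in its 2 h libraries, and did not pass the test (adjusted p = 0.055). Zfp472 stood apart from its neighbours, with 10.6 and 8.08 CPM in vehicle, 9.61 and 9.12 at 2 h, and 15.02 and 13.55 at 12 h.

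**Figure D4:**
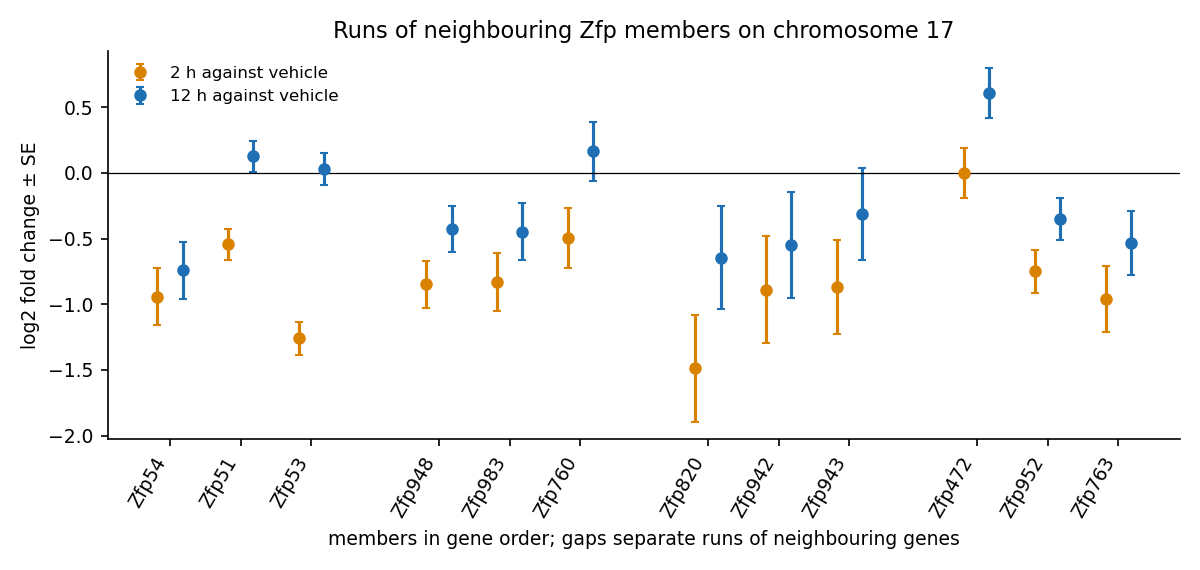
The log2 fold change with its SE is shown for 12 members in 4 runs of neighbouring genes on chromosome 17, at 2 h (orange) and at 12 h (blue) against vehicle. At 2 h, 11 of the 12 lie below 0 and Zfp472 lies at 0, and at 12 h each member lies above its 2 h value.

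The longest runs elsewhere are given for comparison. The 7 members from Zfp874b to Zfp65 on chromosome 13 had 2 h log2FC between -0.45 and 0.16. The 5 from Zfp60 to Zfp780b on chromosome 7 lay between -0.51 and -0.39, and the 5 from Zfp560 to Zfp846 on chromosome 9 between -0.38 and -0.02. None of the members of these runs passed edgeR's test at 2 h at an adjusted p of 0.05, where 5.25% of all genes fell and 9.91% rose. Zfp874b, Zfp974 and Zfp780b were higher at 12 h than at 2 h (log2FC 0.79, 0.54 and 0.53), as were 15.2% of all genes, and the call for Zfp974 was lost when only the 2 groups were fitted. The counts of these 3 are uncertain, since 35.3%, 32.3% and 37.8% of the coding windows of Zfp874b, Zfp974 and Zfp780b also occur in a transcript of another gene. Zfp266, in the run on chromosome 9, was also higher at 12 h than at 2 h (log2FC 0.50).

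Shared sequence limited which members could be read cleanly. Of 216 members, 151 had no 50-base window of coding sequence in common with a protein-coding transcript of another gene. Another 25 had more than 10% of their windows in common, 23 of them KRAB members. The members' untranslated regions, noncoding transcripts and the rest of the genome were not searched, so members with no shared window may still share sequence there. The highest share was 56.1%, in Zfp955a and Zfp955b. Of the 33 members lower at 2 h, 1 had more than 10% of windows in common.

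Promoters of 2 members of the chromosome 17 run are given, since these genes fell together at 2 h. They are RefSeq windows of build GRCm38.p6, from 250 bases before to 50 bases after the start site on the plus strand, at chr17:21422977-21423276 for Zfp54 and chr17:21488738-21489037 for Zfp53. Capitals mark the only match in the printed windows to a searched motif, an E-box of the Snail and Zeb factors (CACCTG, read on either strand).
Zfp54: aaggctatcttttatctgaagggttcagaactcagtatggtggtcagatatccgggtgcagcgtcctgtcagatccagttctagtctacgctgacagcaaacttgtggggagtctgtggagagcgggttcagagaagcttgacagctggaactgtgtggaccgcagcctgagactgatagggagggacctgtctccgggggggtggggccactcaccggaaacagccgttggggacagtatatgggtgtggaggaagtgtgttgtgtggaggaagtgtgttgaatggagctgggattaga
Zfp53: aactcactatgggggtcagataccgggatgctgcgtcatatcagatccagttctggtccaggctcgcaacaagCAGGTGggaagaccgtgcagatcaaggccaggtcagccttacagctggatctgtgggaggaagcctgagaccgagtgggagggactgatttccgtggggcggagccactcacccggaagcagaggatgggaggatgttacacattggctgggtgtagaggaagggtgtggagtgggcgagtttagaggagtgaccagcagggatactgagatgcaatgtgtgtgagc
The windows were identical at 199 of 269 aligned bases (74%), and Zfp54 has other RefSeq windows that are not shown, of which the one at chr17:21423245-21423544 does hold the E-box and was identical to the Zfp53 window at 57.6% of aligned bases. Over all windows of a gene, 184 members could be matched. The E-box was found in 15.2% of these and in 22.6% of 27025 genes. The AP-1 site TGANTCA was found in 5.98% of members and 8.97% of all genes, and the SMAD palindrome GTCTAGAC in none of the members and 0.248% of all genes. Among the 30 matched members that fell at 2 h, 5 held the E-box and 3 the AP-1 site, and among the 12 that rose, 2 held the E-box and none the AP-1 site. A match describes letters in the window and says nothing of binding.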

How the data were processed

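Stranded total RNA of NMuMG cells was sequenced in 6 libraries, 2 biological replicates for each of the 3 groups, and samples were grouped by the submitters' labels. Reads were filtered by the authors and aligned to mm9 with subjunc of the Subread package, after which they kept unique alignments, removed duplicates with SAMtools 0.1.19 and counted exonic reads by strand with featureCounts. The files deposited hold these raw counts per gene, not normalized, and all values were found to be whole, with library totals that differ.

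The analysis used R 4.3.3 and edgeR 4.0.16 (TMM factors, quasi-likelihood test, two-sided), with limma 3.58.1 and DESeq2 1.42.0 as alternatives. Genes needed at least 2 CPM in at least 2 libraries. The SE of a log2FC is its size divided by the square root of F. P-values were adjusted over all 11080 genes within each contrast. Members and gene lists were chosen with earlier results of these data known. Named genes are the members of the role lists, up to 5 largest changes per contrast and direction among calls, the 3 highest and 3 lowest levels per kb, those next to the 5 CPM limit and runs of neighbours. Any other name was chosen after its values were seen.

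Positions and coding sequences came from GENCODE on NCBIM37 (205 members matched by symbol, the others by synonym), promoters from RefSeq. Fingers were counted by spacing pattern and KRAB boxes by a pyhmmer 0.12.3 profile of 141 boxes with an E-value limit of 1e-05. Alternatives were other tests, scalings, filters, memberships, a replicate block, fits of the 2 groups compared, a prior count of 2, and each library left out. In simulated counts of the comparison of 2 h with vehicle, over 11080 genes, edgeR called 59 of 100 genes with a planted log2FC of 1 and 89 of 100 with one of 1.5. Replicates differed by 16.8 to 52.8 times counting error, so none was counted as a repeat of another.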

Additional observations from a re-analysis of the deposited data

Results flagged for a closer look

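Of 96 named members, 28 differed in level between the 12 h and the 2 h libraries, by edgeR's quasi-likelihood test at an adjusted p under 0.05. These libraries also differ in the time without serum. Of all genes tested, 15.2% were higher at 12 h than at 2 h and 18.9% lower, and 9 of the 28 were named because their change was among the largest of this same comparison, so the count is no independent result. For 4 of them the log2FC against vehicle was lower at 12 h, with a difference of -1.16 for Zfp704, -0.83 for Zfp101, -0.72 for Zfp36 and -0.45 for Zfp668. Zfp704 and Zfp668 were at their highest at 2 h, and Zfp101 and Zfp36 at their lowest at 12 h. The other 24 were higher at 12 h, and for 13 of these the difference was above 0.6, with 1.29 for Zfp53, 1.10 for Zfp57, 0.98 for Zfp605, 0.90 for Zfp593, 0.88 for Zfp639, 0.79 for Zfp874b, 0.76 for Zfp451, 0.73 for Zfp398, 0.71 for Zfp146, 0.67 for Zfp51, 0.66 for Zfp599, 0.63 for Zfp74 and 0.61 for Zfp472. For the remaining 11 it was 0.57 for Zfp84, 0.57 for Zfp830, 0.56 for Zfp318, 0.54 for Zfp974, 0.53 for Zfp780b, 0.52 for Zfp568, 0.50 for Zfp106, 0.50 for Zfp266, 0.48 for Zfp329, 0.47 for Zfp317 and 0.42 for Zfp810. Of these 24, Zfp451, Zfp146 and Zfp106 had been called higher at 2 h already, and Zfp53, Zfp639, Zfp51 and Zfp318 had been called lower. With 2 libraries in each group, no test for a single library far from its group was possible.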

How the results depend on the processing

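With limma-voom, DESeq2, its size factors in edgeR, and either other filter on low counts, all counts of members stayed within 1.5 times of those reported. Total counts changed the 12 h split to 26 higher and 27 lower. Fitting only the 2 groups compared left 6 members higher and 10 lower at 2 h, 8 of the latter KRAB members, and 27 lower at 12 h. The replicate numbers are shared by the groups, but no label ties them to a batch, and deviations of libraries with one number correlated at 0.695, 0.276 and 0.391 across genes. The replicate block gave 23 higher and 62 lower (43 KRAB members) at 2 h, 56 higher and 32 lower at 12 h, and 86 higher (53 KRAB members) and 10 lower at 12 h against 2 h. A limit of 10 CPM left 159 members, with 18 lower at 2 h, 8 lower at 12 h and 2 lower at 12 h against 2 h, and all 299 Zfp symbols tested gave 51 lower at 2 h and 75 higher at 12 h against 2 h. Leaving out 1 library at a time gave 2 to 14 higher and 5 to 35 lower at 2 h (3 to 21 KRAB members lower), 16 to 51 higher and 8 to 26 lower at 12 h, and 9 to 48 higher (4 to 29 KRAB members) and 1 to 7 lower at 12 h against 2 h. The lone replicate then was assumed to vary like the other groups. For 96 named members, no called log2FC reversed in any alternative, and of the values called as reported, 44 of 756 lost their call with all libraries kept and 212 of 504 with 1 left out. The 756 include the prior count of 2, for which only the sign was compared, so those values could not lose their call. The cause of the changes between settings was not tested.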
